A study of Homo sapiens with 24 samples.

Results

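The 6 libraries described here compare MDA-MB-453 cells that received fulvestrant with MDA-MB-453 cells that received the vehicle DMSO. They were chosen by their labels, as the 3 fulvestrant and the 3 DMSO libraries of this line, out of 24 libraries in 8 groups that cover MDA-MB-453 and MDA-MB-231 with DMSO, abemaciclib, fulvestrant or both drugs. Fulvestrant was given alone at 5 nM for 5 days. Abemaciclib, an inhibitor of the cyclin-dependent kinases CDK4 and CDK6 used at 500 nM in other groups of the study, was absent from both groups compared here. RNA was read by 3′ RNA-seq (QuantSeq forward libraries), which copies RNA from stretches of A with an oligo-dT primer and counts reads per gene, so that longer transcripts do not collect more reads for their length. The 3 replicates of a group are biological replicates of 1 established line from 1 experiment, so that p-values measure the spread between these libraries.

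Fulvestrant binds the oestrogen receptor, keeps it from activating transcription and sends it for degradation. In receptor-positive breast cancer this lowers the receptor's target genes and slows the cell cycle. MDA-MB-453 is a breast cancer line classed as oestrogen receptor negative, with a luminal, apocrine programme of transcription. The comparison therefore addresses what the drug does to transcription in cells in which its target is scarcely expressed.

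The target was not detected. ESR1, which encodes the oestrogen receptor α and lies on chromosome 6 from 151656691 to 152129619 (hg38, plus strand), had 0 counts in each of the 6 libraries. A count of 0 allows up to 3 counts over a group, which is 0.281 CPM for DMSO and 0.266 CPM for fulvestrant. CPM are counts scaled to a total, which is that of the group here and the TMM-scaled library total elsewhere. ESR2, the oestrogen receptor β, also had 0 counts in every library. The membrane oestrogen receptor gene GPER1 had 2, 2 and 1 counts with DMSO and 4, 0 and 10 counts with fulvestrant. PGR, the progesterone receptor, had 3 counts in 1 DMSO library and 0 in the other 5. The oestrogen-responsive gene GREB1 had between 0 and 4 counts in each library. None of these 5 genes had enough counts to be tested.

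Markers of the line were present. All 12 markers of MDA-MB-453 identity, among them FOXA1, ERBB2, GATA3 and SPDEF, were detected, with a summed level of 4953 to 5185 CPM with DMSO and 4807 to 4923 CPM with fulvestrant. Of 20 markers of mesenchymal, blood, vessel and liver cells, 14 had 0 counts in all 6 libraries and 19 had fewer than 10 counts in total. The remaining marker, the collagen gene COL1A1, had 124 to 219 counts in each library (32.9 to 55.3 CPM). Library totals lay between 3324814 and 3806769 counts and did not separate the groups (exact 2-sided permutation p = 0.7, n = 3 and 3, smallest possible p 0.1).

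The differences between the groups were small. Of 11080 genes tested with edgeR's quasi-likelihood test, 156 passed a Benjamini-Hochberg adjusted p of 0.05, which is 1.41% of the genes tested. The called genes comprised 112 that were higher with fulvestrant (1.01% of genes tested) and 44 that were lower (0.397%). These shares are the background for the calls given for gene classes. Their median absolute log2 fold change was 0.48, 45 of them changed by more than 1.5-fold and 4 by more than 2-fold. The median of all genes tested was −0.02 on the same scale. At an unadjusted p under 0.05 were 1504 genes (13.6% of those tested), 782 higher (7.06%) and 722 lower (6.52%), the background for the counts at this level given for gene classes. The called genes were abundant ones, with a median of 174 CPM against 23.3 CPM for all genes tested. In the highest of 4 equal groups by mean CPM, 3.29% of genes were called higher and 1.44% lower. In the lowest group these shares were 0.0361% and 0%. The shares over all genes tested do not allow for this, so a class of abundant genes can exceed them for that reason. CPM did not overlap between the groups for 127 of the 156 genes, beside 1872 of all genes tested (16.9%), a count that rests on the same values as the call. By direction these were 84 of the 112 higher genes, beside 7.78% of all genes tested, and 43 of the 44 lower genes, beside 9.12%.

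Among the genes higher with fulvestrant, those with the smallest p were SMC3, ANKRD30A, RNU4ATAC, ANKRD11, KTN1, DEK, H4C3 and SMC4. SMC3, a subunit of the cohesin ring that holds sister chromatids together, stood at 84.6, 92.9 and 84.3 CPM with DMSO and at 168, 179.9 and 123 CPM with fulvestrant. All 3 fulvestrant libraries lay above all 3 DMSO libraries, the third by the least, and the log2 fold change was 0.85 (SE 0.13, adjusted p = 0.000219). ANKRD30A, a gene of breast and testis tissue, stood at 75.95, 80.7 and 68.5 CPM with DMSO and at 154, 152 and 92.4 CPM with fulvestrant (log2 fold change 0.83, SE 0.14, adjusted p = 0.000742). ANKRD11, an ankyrin repeat regulator of chromatin, stood at 96.2, 93.9 and 89.4 CPM with DMSO and at 159, 147 and 121 CPM with fulvestrant (log2 fold change 0.61, SE 0.11, adjusted p = 0.0016). For both genes the groups did not overlap, and the third fulvestrant library again lay nearest to DMSO.

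The chromatin protein gene DEK stood at 249, 269.9 and 239 CPM with DMSO and at 439, 444 and 296 CPM with fulvestrant. KTN1, which encodes the kinesin-binding protein kinectin, had a log2 fold change of 0.55 (SE 0.10), SMC4 of the condensin complex one of 0.59 (SE 0.11) and the histone gene H4C3 one of 0.54 (SE 0.10). RNU4ATAC, the U4atac small nuclear RNA of the minor spliceosome, stood at 62.4, 46.6 and 67.1 CPM with DMSO and at 156, 192 and 65.7 CPM with fulvestrant. Its mean was 2.36-fold higher with fulvestrant (log2 fold change 1.24, SE 0.22), while the third fulvestrant library lay inside the DMSO range. Over the settings tried, the log2 fold change of RNU4ATAC ran from 0.0118 to 1.57, and it was called in 10 of 13 of them. How the oligo-dT primer captured the RNAs of RNU4ATAC and H4C3 was not tested.

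The genes lower with fulvestrant were led by 5 genes of the mitochondrial genome, MT-ATP6, MT-ND3, MT-CO3, MT-ND4 and MT-ND4L. MT-ATP6, a subunit of the ATP synthase, stood at 13733, 13268 and 14957 CPM with DMSO and at 10071, 9488 and 11256 CPM with fulvestrant. Every fulvestrant library lay below every DMSO library, and the log2 fold change was −0.45 (SE 0.06, adjusted p = 0.000142). Of the remaining leading genes, CTSD, the lysosomal protease cathepsin D and a known oestrogen-responsive gene, stood at 444, 445 and 508 CPM with DMSO and at 328, 354 and 381 CPM with fulvestrant (log2 fold change −0.39, SE 0.08, adjusted p = 0.00739). RPL6P27 and RPL13AP5 are ribosomal protein pseudogenes whose reads may belong to their parent genes, so their identity is uncertain; their log2 fold changes were −0.43 (SE 0.09) and −0.50 (SE 0.11). The plot of named genes by library shows the 8 leading genes of each direction.

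**Figure D1:**
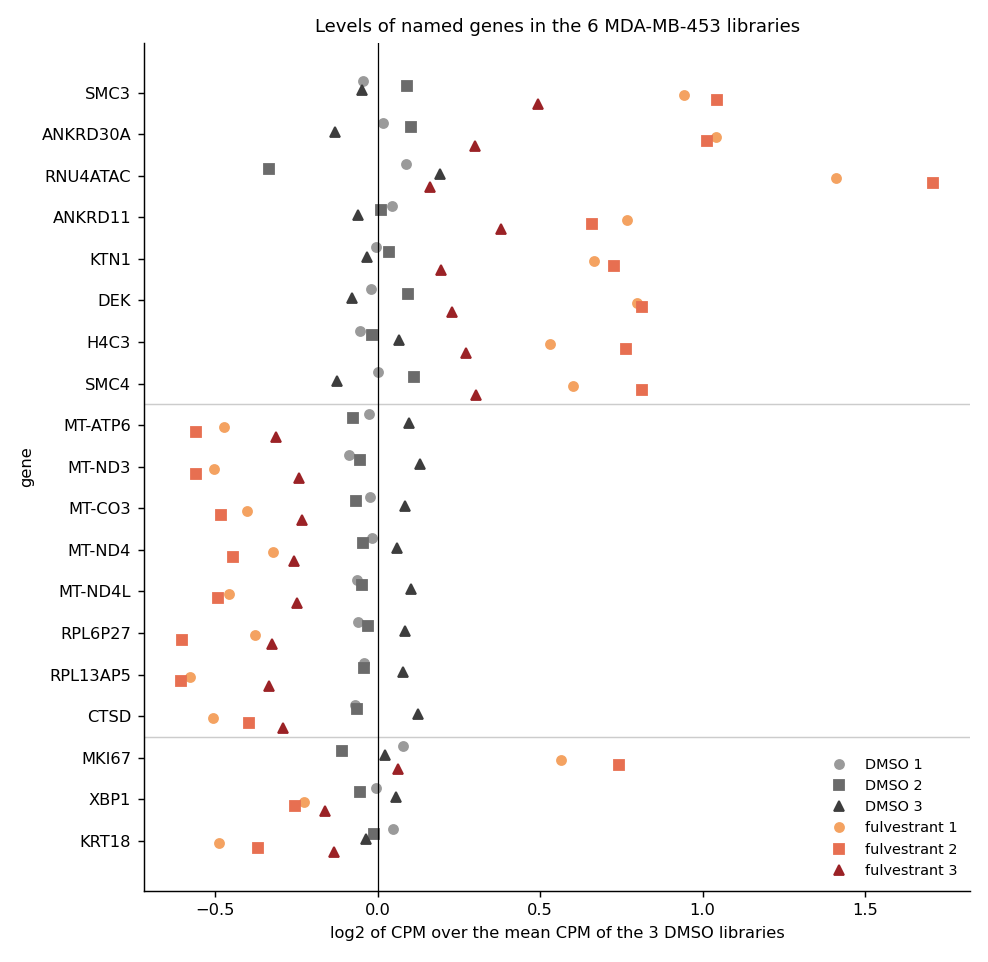
Each symbol is 1 library, placed by the log2 of its CPM over the mean CPM of the 3 DMSO libraries, for the 8 leading genes higher with fulvestrant (top), the 8 leading genes lower with fulvestrant (middle) and MKI67, XBP1 and KRT18 (bottom). Fulvestrant libraries 1 and 2 lie far from the DMSO libraries and fulvestrant library 3 lies nearer to them, inside the DMSO range for RNU4ATAC and MKI67.

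The third fulvestrant library stood apart from the other two. On the first principal component of the 6 libraries, which held 45.2% of the variance, the DMSO libraries lay at −7.37, −6.37 and −9.66, fulvestrant libraries 1 and 2 at 12.8 and 15.2, and fulvestrant library 3 at −4.65. Over 5988 genes of at least 20 CPM, the SD of the log2 difference between 2 DMSO libraries was 0.251 to 0.254. Fulvestrant library 3 differed from the DMSO libraries by 0.247 to 0.256 on this measure, which is as little as the DMSO libraries differed from each other, whereas fulvestrant libraries 1 and 2 differed from them by 0.322 to 0.366. Among the 156 called genes, library 3 showed the smallest displacement of the 3 fulvestrant libraries for 144 and lay inside the DMSO range for 28 and on its far side for 1 (MT-ATP8), while libraries 1 and 2 lay outside it in the direction of the call for all 156. The call used these same values, so the counts are a description.

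The number of calls followed the library left out. With fulvestrant library 3 left out, 794 genes were called (7.17% of genes tested), 429 of them higher (3.87%) and 365 lower (3.29%), and all 156 were among them. These shares are the background for the calls given for gene classes without this library. With fulvestrant library 2 left out, 5 genes were called (0.0451%), 3 higher (0.0271%) and 2 lower (0.0181%), and with fulvestrant library 1 left out, 24 (0.217%). Leaving out DMSO library 1 gave 43 calls (0.388%), 30 higher (0.271%) and 13 lower (0.117%). Leaving out DMSO library 2 gave 19 (0.171%), 13 higher (0.117%) and 6 lower (0.0542%), and leaving out DMSO library 3 gave 18 (0.162%). The sign of the fold change was kept for all 156 genes in each of these 6 fits. The 156 were chosen from the same libraries, which makes a change of sign unlikely, so this count is a description. Of the 156 genes, 110 were called in 1 of the 6 fits, the fit without fulvestrant library 3, and 5 were called in all 6. These 5 were SMC3, ANKRD30A and ANKRD11, which were higher with fulvestrant, and MT-ATP6 and MT-ND3, which were lower.

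**Figure D2:**
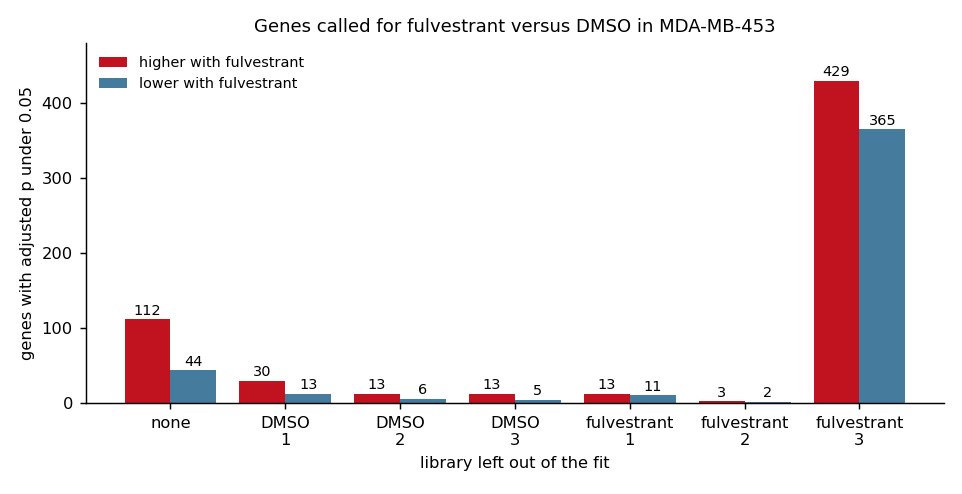
Bars give the number of genes at an adjusted p under 0.05 that were higher (red) or lower (blue) with fulvestrant, with all 6 libraries ("none") and with each library left out in turn. Counts run from 3 and 2 without fulvestrant library 2 to 429 and 365 without fulvestrant library 3, beside 112 and 44 with all libraries.

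Genes that respond to steroid hormones were examined first. Of 108 oestrogen receptor targets in the table, 76 had enough counts to be tested, and 2 of these were called, both lower (CTSD and KRT18), with a median log2 fold change of −0.06 over the 76. The median lay between −0.08 and 0.00 as each library was left out, and 2 genes were called higher and 7 lower without fulvestrant library 3. KRT18, a keratin of simple epithelia, stood at 806, 775 and 761 CPM with DMSO and at 557, 605 and 711 CPM with fulvestrant (log2 fold change −0.32, SE 0.08, adjusted p = 0.0334). The groups did not overlap, and the call was lost in each fit that left out another library than fulvestrant library 3. TFF1, a secreted trefoil peptide and a standard readout of oestrogen receptor activity, was at 1.70 to 3.25 CPM with DMSO and 0.515 to 2.27 CPM with fulvestrant, and the groups overlapped (log2 fold change −1.12, SE 0.72, adjusted p = 0.53). CCND1, the cyclin D1 gene, stood at 549, 543 and 586 CPM with DMSO and 508, 528 and 526 CPM with fulvestrant (log2 fold change −0.10, SE 0.08, adjusted p = 0.60). XBP1, a transcription factor of the secretory pathway, stood at 1377 to 1489 CPM with DMSO and at 1199.6 to 1278 CPM with fulvestrant (log2 fold change −0.21, SE 0.07, adjusted p = 0.13). KRT19, another keratin of luminal cells, stood at 1816 to 1961 CPM with DMSO and 1699.5 to 1797 CPM with fulvestrant (log2 fold change −0.14, SE 0.07, adjusted p = 0.396). Neither gene overlapped between the groups and neither was called by edgeR with all libraries. XBP1 was called by DESeq2 (adjusted p = 0.0188) and without fulvestrant library 3 (adjusted p = 0.019).

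The palindromic oestrogen response element was searched for in promoters as GGTCA and TGACC separated by any 3 bases, which reads the same on both strands. The RefSeq promoter table (GRCh38.p14, 250 bases before to 50 bases after the start of each gene) holds it in 18 of 27305 promoters (0.0659%), 1 of them among 8506 tested genes (0.0118%). None of the 100 called genes with a promoter in the table held it, and neither did any of 57 tested oestrogen receptor targets. At these shares, sets of this size are expected to hold none. Other forms of the element and places outside these promoters were not searched, so no conclusion is drawn from its absence.

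Among androgen-responsive and apocrine genes, 34 were tested and 1 was called, with a median log2 fold change of −0.01. The called gene was ZBTB16, a zinc finger repressor induced by steroid hormones, which stood at 20.2, 21.7 and 18.7 CPM with DMSO and at 29.1, 40.6 and 27.3 CPM with fulvestrant (log2 fold change 0.68, SE 0.18, adjusted p = 0.0395). PIP, a secreted apocrine marker, had a log2 fold change of −0.02 (SE 0.12), whose sign differed between settings, and FKBP5, a chaperone induced by androgens and glucocorticoids, one of 0.16 (SE 0.08, adjusted p = 0.355).

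Of 38 tested steroid receptors, their cofactors and luminal transcription factors, 0 were called with all libraries by edgeR with TMM scaling, 1 was called higher with DESeq2 size factors and 2 with mitochondrial genes removed. At an unadjusted p under 0.05, 10 of the 38 had a fold change above 0 and 1 below 0, beside 7.06% and 6.52% of all genes tested. Without fulvestrant library 3, 8 were called higher and 1 lower. KDM5A, a histone H3 lysine demethylase that binds RB1, lay at 0.38 in log2 fold change (SE 0.14, adjusted p = 0.188), and the retinoblastoma gene RB1 at −0.15 (SE 0.15, adjusted p = 0.739). FOXA1 and ERBB2 had log2 fold changes of −0.07 (SE 0.10) and 0.05 (SE 0.09) with overlapping groups.

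Genes of the cell cycle lay above the median of all genes. Of 103 tested mitosis genes, 4 were called, all higher (SMC4, TOP2A, CENPF and MKI67), with a median log2 fold change of 0.13 that ran from 0.08 to 0.17 as each library was left out. TOP2A, the topoisomerase that untangles chromosomes before division, stood at 298, 268 and 318 CPM with DMSO and at 417, 463 and 359.7 CPM with fulvestrant (log2 fold change 0.49, SE 0.10, adjusted p = 0.00522). MKI67, the proliferation marker Ki-67, stood at 292, 256 and 281 CPM with DMSO and at 409, 463 and 289 CPM with fulvestrant (log2 fold change 0.49, SE 0.12, adjusted p = 0.0239). The third fulvestrant library lay inside the DMSO range for MKI67 and above it for TOP2A.

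Of 94 tested genes of DNA replication and E2F targets, 3 were called higher and 0 lower, with a median log2 fold change of 0.10 (0.06 to 0.13 as each library was left out). ATAD2, a chromatin ATPase of replicating cells, had a log2 fold change of 0.51 (SE 0.10) and the helicase gene MCM8 one of 0.64 (SE 0.14). Without fulvestrant library 3, 9 replication genes were called higher and 0 lower, and 10 mitosis genes higher and 2 lower.

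Some genes of chromatin and RNA processing were also among those called higher. Of 104 chromatin regulators tested, 3 were called higher and 0 lower, beside 1.01% and 0.397% of all genes tested. In the highest of 4 equal groups of genes by mean CPM these shares were 3.29% and 1.44%. Whether these classes differ from genes of like abundance was not tested. Their median log2 fold change was 0.14 (0.10 to 0.19 as each library was left out). Without fulvestrant library 3 the count was 22 higher and 0 lower, beside 3.87% and 3.29% of all genes tested. SMARCC1, a core subunit of the SWI/SNF remodelling complex, stood at 177, 160.5 and 142 CPM with DMSO and at 243, 282 and 175 CPM with fulvestrant (log2 fold change 0.55, SE 0.11, adjusted p = 0.00674). ATRX, a remodeller that deposits histone H3.3, stood at 73.4, 63.6 and 58.3 CPM with DMSO and at 124, 104 and 72.6 CPM with fulvestrant (log2 fold change 0.63, SE 0.13). For both genes fulvestrant library 3 lay inside the DMSO range.

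Among 85 splicing factors, 2 were called higher and 0 lower. The median was −0.05, below the −0.02 of all genes tested, with 37 fold changes above 0 and 48 below. SRRM1, a coactivator of splicing, stood at 365, 328 and 351 CPM with DMSO and at 600.5, 551 and 391 CPM with fulvestrant (log2 fold change 0.56, SE 0.11), and SRSF11 had a log2 fold change of 0.40 (SE 0.11). Of 69 genes of ribosome biogenesis, 3 were called higher and 0 lower, with a median of 0.06. These included the helicase gene DDX27 (log2 fold change 0.50, SE 0.10) and DKC1, the pseudouridine synthase of small nucleolar RNPs (0.41, SE 0.10). Of 352 genes named ZNF, 3 were called, all higher, ZNF791 and ZNF22 among them, beside 1.01% of all genes tested. The median of the 352 genes was 0.01.

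The nuclear long noncoding RNA MALAT1 stood at 1597, 1598 and 1505 CPM with DMSO and at 2980, 2618 and 1522 CPM with fulvestrant (log2 fold change 0.60, SE 0.13, adjusted p = 0.011). It was the only called gene of 30 long noncoding RNAs tested in this class, and fulvestrant library 3 lay inside the DMSO range. HSP90AA1, an HSP90 chaperone gene, was the only called gene of 36 heat shock genes (log2 fold change 0.33, SE 0.08). The median of that class was −0.08, with 17 fold changes above 0 and 19 below. The proteasome subunits PSMD7 (0.39, SE 0.10) and PSMC1 (0.47, SE 0.13) were called among 35. The median of the proteasome class was −0.09, with 15 fold changes above 0 and 20 below.

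The protein-coding genes of the mitochondrial genome were mostly lower with fulvestrant. Their RNAs are cut from long transcripts of both strands. Most of these RNAs, but not all, carry short poly(A) tails, through which the oligo-dT primer can capture them. Of the 13 genes, 9 were called lower and 1 higher, with a median log2 fold change of −0.29 that ran from −0.32 to −0.23 as each library was left out. Relative to the mean of the 6 libraries, the median level of the 13 genes was 0.10, 0.11 and 0.26 on the log2 scale with DMSO and −0.10, −0.22 and −0.10 with fulvestrant. All 3 fulvestrant libraries thus lay below all 3 DMSO libraries, library 3 included. MT-ND3, a subunit of complex I, stood at 22782, 23328 and 26518 CPM with DMSO and at 17073, 16423 and 20476 CPM with fulvestrant (log2 fold change −0.43, SE 0.07, adjusted p = 0.000219). Over all 27 genes of the mitochondrial genome, ribosomal and transfer RNAs included, 3 were called higher and 9 lower, 13 had a fold change above 0, and the median was −0.13. The transfer RNA genes called higher, named after their values were seen, were MT-TF (log2 fold change 0.81, SE 0.17) and MT-TL1 (0.47, SE 0.13). How the primer captured these transfer RNAs was not tested. MT-CO3 and MT-ND4 had log2 fold changes of −0.37 (SE 0.06) and −0.34 (SE 0.06). All counts of the mitochondrial genome together made up 14.8%, 14.9% and 16.0% of the DMSO libraries and 14.9%, 14.8% and 13.3% of the fulvestrant libraries, with no separation of the groups (exact 2-sided permutation p = 0.4, n = 3 and 3).

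The protein-coding gene called higher was MT-ATP8, a small subunit of the ATP synthase encoded from chrM:8366 to chrM:8572, whose last bases are also the first bases of MT-ATP6 (chrM:8527 to chrM:9207). It stood at 1417, 1477 and 1573 CPM with DMSO and at 2916, 2797 and 1207 CPM with fulvestrant. Libraries 1 and 2 thus lay far above DMSO and library 3 below it (log2 fold change 0.63, SE 0.17, adjusted p = 0.0386). The 46 bases shared by both genes are in capitals in chrM:8517-8582 (hg38, plus strand), shown because reads over them could be counted for either gene or for neither:
MT-ATP8 and MT-ATP6: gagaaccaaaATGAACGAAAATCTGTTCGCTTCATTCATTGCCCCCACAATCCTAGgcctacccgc
Both genes are read from the same long transcript, and they differed in direction in libraries 1 and 2 and not in library 3.

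Genes of the cytosolic ribosome were lower by a small amount. Of 81 ribosomal protein genes tested, 75 had a fold change below 0, 3 were called lower and 0 higher, and the median log2 fold change was −0.20 (−0.27 to −0.16 as each library was left out). Their median level was 0.08, 0.05 and 0.16 on the log2 scale with DMSO and −0.16, −0.17 and 0.03 with fulvestrant. Library 3 lay below the DMSO libraries by far less than libraries 1 and 2, and without it 57 of the 81 genes were called lower. RPS28 stood at 3575, 3479 and 3678 CPM with DMSO and at 2489, 2815 and 3430 CPM with fulvestrant (log2 fold change −0.30, SE 0.08), and RPL10 had a log2 fold change of −0.28 (SE 0.07).

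Nuclear-encoded subunits of the respiratory chain were below 0 in most cases. Of 78 genes, 73 had a fold change below 0, 1 was called lower (0 with DESeq2 size factors), and the median was −0.13. Their median level was 0.05, 0.06 and 0.11 with DMSO and −0.13, −0.13 and 0.04 with fulvestrant, and 12 were called lower without library 3. Among 74 mitochondrial ribosomal proteins 0 were called by edgeR, with 0 higher and 5 lower at an unadjusted p under 0.05, which is close to the 6.52% of all genes tested, and the median was −0.07.

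Glycolytic and hypoxia-responsive genes had a median log2 fold change of −0.19 over 37 genes, 29 of them below 0. None was called with all libraries, 10 were lower and 0 higher at an unadjusted p under 0.05 (6.52% and 7.06% of all genes tested), and 8 were called lower without fulvestrant library 3. The median of this class moved to −0.10 when fulvestrant library 1 was left out. Their level in fulvestrant library 3 was 0.07, inside the DMSO range of 0.03 to 0.13, beside −0.12 and −0.19 in libraries 1 and 2.

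Of 27 genes of the NRF2 and xenobiotic response, 2 were called lower and 0 higher, and with DESeq2 size factors 0 were called. NQO1, a quinone reductase and one of these, stood at 688, 642 and 689 CPM with DMSO and at 507, 504 and 615 CPM with fulvestrant (log2 fold change −0.31, SE 0.09, adjusted p = 0.0489). Keratins and epithelial junction genes had a median of −0.12 over 41 genes, with KRT18 as the only call. Lysosome genes had a median of −0.08 over 60 genes, with CTSD as the only call, and IFT20, a gene of intraflagellar transport, was the only call among 24 genes of its class (log2 fold change −0.81, SE 0.22). Among 27 histone genes of the gene clusters H4C3 was the only call.

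In 5 classes besides those above edgeR called no gene. Cholesterol and fatty acid synthesis (38 genes), the interferon response (33), p53 targets (32), the integrated and ER stress response (52) and immediate early genes (41) had medians between −0.07 and 0.04. At an unadjusted p under 0.05 these classes held 3, 4, 1, 13 and 5 genes, beside 13.6% of all genes tested. Of these the integrated and ER stress response lay above that share and the other 4 classes below it.

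**Figure D3:**
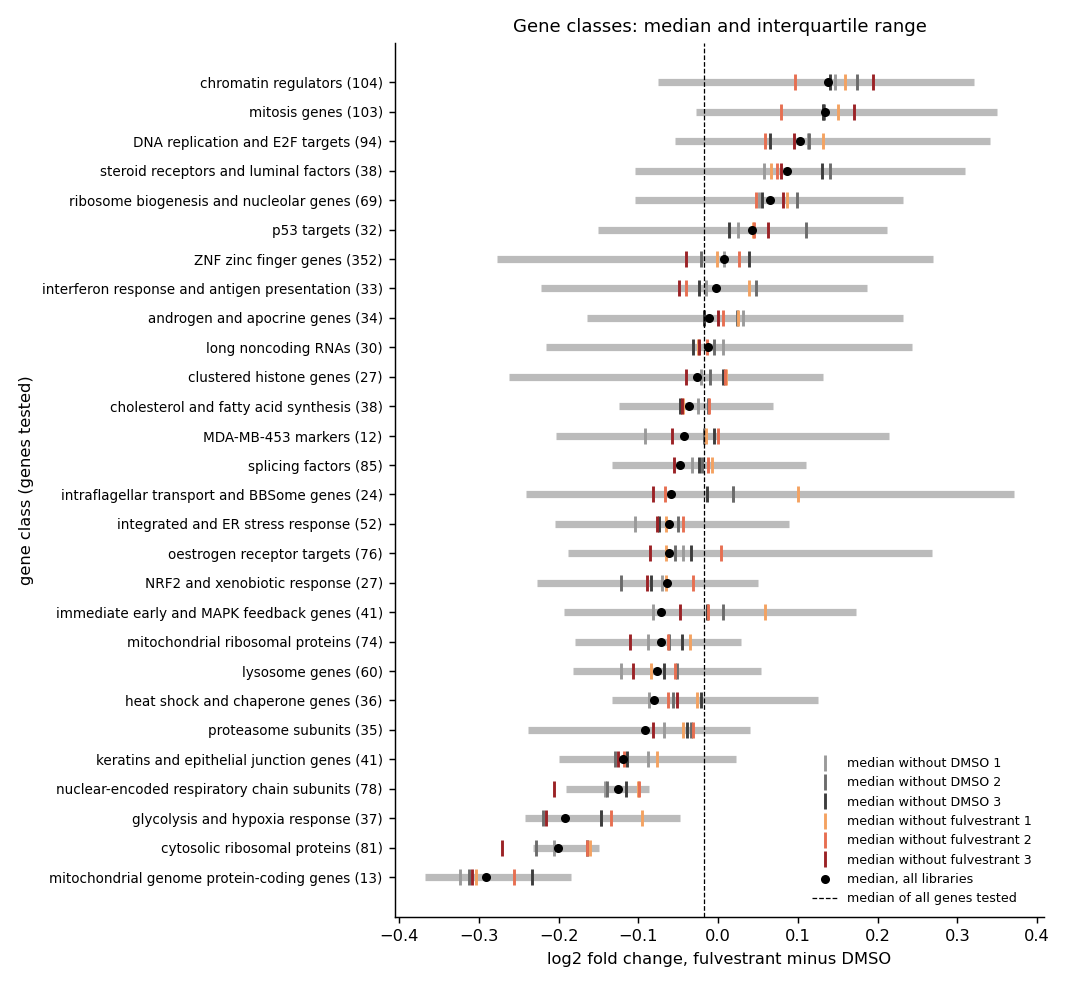
Black points give the median log2 fold change (fulvestrant minus DMSO) of each gene class, grey bars the range from the first to the third quartile of its genes, and coloured ticks the median with each library left out; the dashed line is the median of all genes tested. Mitochondrial genome genes lie at −0.29 and ribosomal protein genes at −0.20, below the line in every fit, and chromatin (0.14) and mitosis genes (0.13) lie above it in every fit.

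The called genes also differed in the length and A content of their genes. Genes called higher spanned a median of 47.1 kb and held a median of 8 intronic runs of at least 10 A on the strand of the gene, whereas genes called lower spanned 7.20 kb and held 0 such runs, beside 31.8 kb and 6 runs for all genes tested. The genes called lower include 9 of the mitochondrial genome and 5 pseudogenes. Intronic runs of A are places at which an oligo-dT primer can pair within unspliced RNA. The longest intronic runs of the 3 genes called higher whichever library was left out are shown as examples of this feature. Each has 10 bases on each side (hg38, strand of the gene), with the run in capitals.
SMC3, 23 A at chr10:110604085-110604127: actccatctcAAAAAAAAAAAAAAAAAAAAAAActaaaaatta
ANKRD30A, 39 A at chr10:37127037-37127095: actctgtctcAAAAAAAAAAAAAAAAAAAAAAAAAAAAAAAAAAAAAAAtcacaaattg
ANKRD11, 31 A at chr16:89368362-89368412, minus strand: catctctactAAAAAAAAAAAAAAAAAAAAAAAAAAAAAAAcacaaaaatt
SMC3 and ANKRD30A each hold 5 intronic runs of at least 10 A, fewer than the median gene, and ANKRD11 holds 28.

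Over all genes, the median log2 fold change rose with the number of such runs, from −0.08 for genes with 0 to 1 runs over −0.04 and 0.00 to 0.06 for genes with 16 to 386 runs. It rose in the same way with the span of the gene, from −0.09 to 0.08 between the lowest and the highest of 4 equal groups. With the number of exon bases it rose from −0.08 to 0.07. In the highest group, 2.02% of genes were called higher by exon bases, 1.45% by span and 1.37% by runs. Which of these properties matters was not tested. The slope of a library's log2 CPM on the number of runs was −0.0151, −0.0147 and −0.0225 in the DMSO libraries and 0.0183, 0.0200 and −0.0120 in the fulvestrant libraries (exact 2-sided permutation p = 0.1, the smallest possible). Fulvestrant library 3 lay beside the DMSO libraries and apart from libraries 1 and 2. The share of counts on the nuclear RNAs MALAT1 and NEAT1 was also highest in fulvestrant libraries 1 and 2, with 0.165%, 0.165% and 0.1503% in the DMSO libraries and 0.317%, 0.277% and 0.160% in the fulvestrant libraries, the third of which lay inside the DMSO range (exact 2-sided permutation p = 0.3). The part of the slope and of nuclear RNA in the results for single genes was not tested.

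When each library's slope entered the model as a covariate, 10 genes were called, all lower with fulvestrant, and 6 of them were among the 156. Of these 10, 8 were genes of the mitochondrial genome. MT-ATP6 had a log2 fold change of −0.30 and MT-ND4 one of −0.29 in this fit. Of the genes called whichever library was left out, MT-ATP6 was called here, while SMC3, ANKRD30A, ANKRD11 and MT-ND3 were not. MT-ATP8 changed direction and was called lower with the rest (log2 fold change −0.46), KDM5A, MALAT1, PSMC1 and SRSF11 turned to values below 0 and were not called, and the 13 protein-coding genes had a median of −0.31. In the same fit the median of the ribosomal proteins was −0.07, that of respiratory chain subunits −0.0033, that of mitosis genes 0.07 and that of replication genes 0.05, with no gene of these 4 classes called. The medians of 11 of 29 lists changed sign, among them chromatin regulators (−0.03), ribosome biogenesis (−0.03) and oestrogen receptor targets (0.0026). The slope and the group move together in these libraries, so what belongs to each cannot be told apart.

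**Figure D4:**
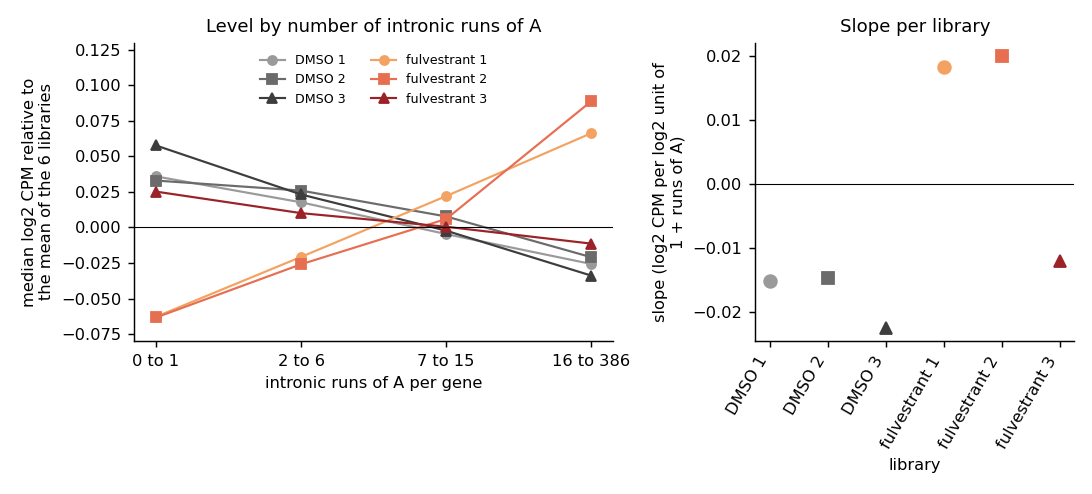
Left, the median log2 CPM of genes in 4 bins of intronic runs of A, relative to the mean of the 6 libraries, with 1 line per library; right, the slope of log2 CPM on log2 of 1 + the number of runs, 1 symbol per library. Fulvestrant libraries 1 and 2 rise from −0.06 to 0.07 and 0.09, while the DMSO libraries and fulvestrant library 3 fall.

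The same drug was also added to MDA-MB-453 cells under abemaciclib, in libraries that share none with the comparison above. Between the combination and abemaciclib alone 273 of 11080 genes were called (2.46%), 139 higher (1.25%) and 134 lower (1.21%). Of the 112 genes higher with fulvestrant alone, 20 had a positive fold change there (17.9%), and their median log2 fold change was −0.24. Of the 44 lower genes, 29 were again negative (65.9%), with a median of −0.05. Over all genes tested 47.0% had the same sign in both comparisons, and the log2 fold changes had Pearson's r = −0.02 over 11080 genes, which are not independent replicates. Of the 156 genes, 4 were called in the same direction and 15 in the opposite direction.

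SMC3 had a log2 fold change of −0.24 (SE 0.14) under abemaciclib and DEK one of −0.53 (SE 0.14), against 0.85 and 0.64 without it. ANKRD30A was higher in both settings, at 0.52 (SE 0.14, adjusted p = 0.0245) under abemaciclib, and MALAT1 likewise (0.99, SE 0.13). MT-ATP6 had a log2 fold change of 0.06 (SE 0.06) there. The difference between the fulvestrant effects with and without abemaciclib was called for 421 genes (3.8% of those tested), 125 above 0 (1.13%) and 296 below 0 (2.67%), with 93 of the 156 among them. The fold change that chose the 156 is a term of this difference, so this count is a description. The slope on runs of A was −0.00339 to 0.0224 in the abemaciclib libraries and −0.00520 to −0.00114 in the combination libraries, so that its difference was −0.0140 here and 0.0262 in the comparison with DMSO. With the slopes in the model, 7 genes were called for the difference.

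In MDA-MB-231, an oestrogen receptor negative line of mesenchymal type, fulvestrant against DMSO gave 0 calls among 11314 genes by edgeR and 0 by DESeq2, with 799 genes at an unadjusted p under 0.05. Of 152 of the 156 genes that were tested there, 15 had the same sign (9.87%), beside 40.9% of all genes tested in both lines. The 109 genes higher in MDA-MB-453 lay at a median of −0.21 in MDA-MB-231, and the 43 lower genes at one of 0.10. SMC3 lay at −0.15 (SE 0.14) on the log2 scale in that line, MKI67 at −0.24 (SE 0.10) and MT-ND3 at 0.26 (SE 0.07). The slope difference on runs of A was −0.0114 in this line. The difference between the lines was called for 135 genes of 12750 (1.06%), 94 above 0 (0.737%) and 41 below 0 (0.322%), with 70 of the 156 among them, a count that the choice of the 156 likewise affects. This count was 2 without fulvestrant library 2 of MDA-MB-453 and 610 without fulvestrant library 1 of MDA-MB-231, and it was 0 with the slopes in the model.

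**Figure D5:**
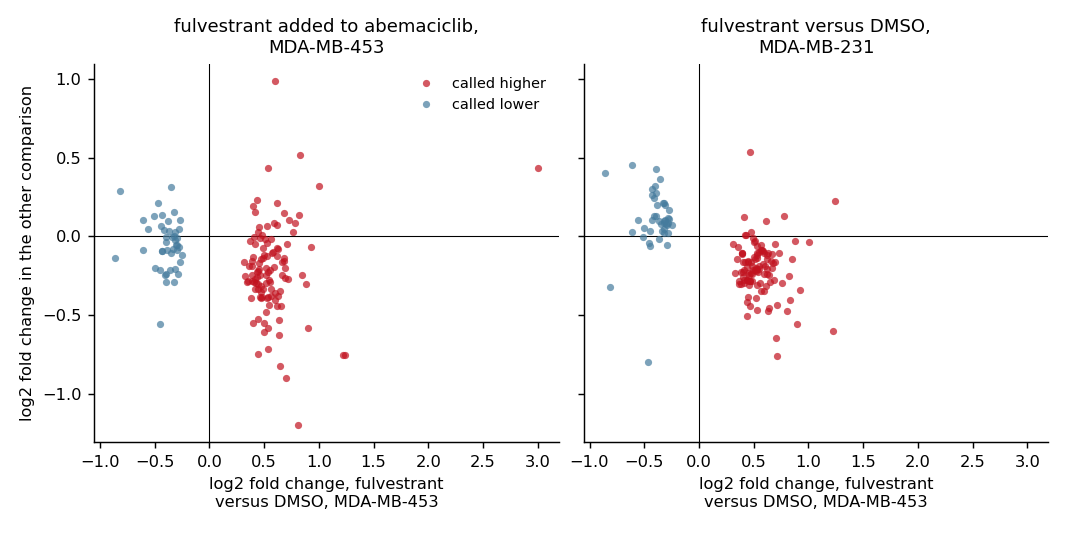
Each point is 1 of the genes called for fulvestrant versus DMSO in MDA-MB-453, with that log2 fold change on the horizontal axis and the log2 fold change of the combination over abemaciclib in MDA-MB-453 (left, 156 genes) or of fulvestrant over DMSO in MDA-MB-231 (right, 152 genes) on the vertical axis. Of the genes called higher (red), 20 of 112 lie above 0 on the left and 8 of 109 on the right.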

How the data were processed

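The authors deposited 1 table of raw, unnormalised gene counts for 59609 symbols. Per the study's methods, 100 bp single-end QuantSeq reads were trimmed with BBDuk, aligned to hg38 with STAR and counted with featureCounts on GENCODE v35. The strand setting and the treatment of multiply aligned reads or molecular identifiers are not given in the sources used here. Overlapping genes on opposite strands (44.4% of genes tested) therefore cannot be told apart, and floors cover counting error only.

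Quasi-likelihood models (edgeR 4.0.16 in R 4.3.3) with TMM scaling and the filterByExpr filter were fitted to all 12 MDA-MB-453 libraries, with a common biological coefficient of variation of 12.6%. CPM are counts scaled by TMM. Fold changes are log2 values, fulvestrant minus DMSO, and tests are 2-sided. DESeq2 (version 1.42.0 here), the tool of the study, was run as an alternative. The code was tested on simulated data. Positions and intronic runs of A came from hg38 with GENCODE v44 (94.7% of genes tested matched by symbol). No library repeated another, since counts of pairs within a group differed by a chi-square of 2.78 to 8.39 per degree of freedom.

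The genes named were 18 genes of interest, the 8 called genes of smallest p per direction averaging at least 10 CPM, up to 10 genes called whichever library was left out, and up to 2 called genes per list and direction. Some genes that this rule names are not reported here. CENPF, NEAT1, GATA3, SPDEF and COL1A1 were named besides. Members and the 29 hand-written lists, which share some genes, were chosen with earlier results of these data known.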

Additional observations from a re-analysis of the deposited data

Results flagged for a closer look

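The fulvestrant effect in MDA-MB-453 with abemaciclib differed from that without it for 421 genes at an adjusted p under 0.05 in edgeR's test of the difference itself, and the effect in MDA-MB-453 differed from that in MDA-MB-231 for 135 genes. These 2 counts fell to 7 and 0 when each library's slope on intronic runs of A was in the model, and the part of this slope in the single genes below was not tested. Many of the genes below were named for their fold change with fulvestrant alone in MDA-MB-453. That fold change is a term of both differences, so the values for these genes are a description.

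Among the named genes, the effect with abemaciclib minus that without it was −1.99 on the log2 scale for RNU4ATAC, −1.26 for H4C3, −1.17 for DEK, −1.09 for SMC3, −0.76 for KTN1, −0.69 for ANKRD11, −0.67 for KDM5A and −0.42 for ERBB2. For mitochondrial genes it was 0.51 for MT-ATP6, 0.40 for MT-CO3, 0.33 for MT-ND4 and 0.33 for MT-ND3, and with the opposite sign −1.26 for MT-ATP8. ERBB2 differs from the others in that its fold change was 0.05 without abemaciclib and −0.38 with it.

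Between the lines, with MDA-MB-231 subtracted from MDA-MB-453, the difference was 0.98 for SMC3, 0.91 for ANKRD11, 0.87 for DEK, 0.75 for SMC4, 0.74 for KTN1 and 0.71 for MKI67. It was −0.49 for MT-ATP6, −0.48 for MT-CO3, −0.70 for MT-ND3, −0.53 for MT-ND4L, 1.09 for MT-ATP8, −0.55 for RPL6P27 and −0.68 for CTSD.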

How the results depend on the processing

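The 156 calls became 294 with DESeq2 (118 shared, 150 higher and 144 lower), 269 without a low-count filter, 10 with the slope on intronic runs of A as a covariate and 4 against a minimum change of 1.2-fold; DESeq2 size factors gave 160, the 2 groups alone 139 (121 higher and 18 lower) and removal of mitochondrial genes 164. Leaving out 1 library gave 5 to 794 calls. The combination against abemaciclib gave 55 calls at 1.2-fold and 83 to 517 without 1 library; the difference with and without abemaciclib gave 7 with the slope, 112 at 1.2-fold and 190 to 887 without 1 library. MDA-MB-231 gave 14 calls without the filter and 0 to 186 without 1 library (186 without its fulvestrant library 1). The difference between lines gave 374 with DESeq2, 297 without the filter, 0 with the slope, 3 at 1.2-fold and 2 to 610 without 1 library. The cause of these changes was not tested.

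Replicate numbers are shared between groups, but libraries of the same number did not deviate together (correlations −0.02, 0.06 and 0.09), so they share only a number. With the replicate number as a block, 111 genes were called, all among the 156, and 37 for the difference between lines.

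With the slope as a covariate the log2 fold change turned to 0.0235 for FOXA1, −0.15 for KDM5A, −0.16 for MALAT1, −0.46 for MT-ATP8, 0.0853 for PIP, −0.11 for PSMC1, 0.10 for RB1 and −0.0291 for SRSF11. PIP was at 0.0032 in the fit of the 2 groups alone and at −0.0799 to 0.0616 without 1 library, and FOXA1 was at 0.0156 without DMSO library 3. Of 350 values for 52 genes under settings other than leaving out a library, 278 kept their direction and their side of the threshold, 60 lost the call, 3 gained it and 9 changed sign. Under DESeq2 size factors and without mitochondrial genes the median of 1 list changed sign in each case, that of the interferon response. At this depth a count of 0 over a group allows 0.281 CPM.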
